A study of Homo sapiens with 9 samples.

Results

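Silencing of SPINK7 was examined in EPC2 cells grown at an air-liquid interface (ALI), by comparing 3 silenced libraries with 3 libraries of the non-silencing control, 6 of the 9 RNA-seq libraries of the series. The account is of genes outside 3 programmes, namely the cornified envelope, the lipid barrier and interferon signalling, and it asks which secreted proteins, receptors, enzymes, transporters and transcription factors changed. EPC2 is a human esophageal epithelial line immortalized with telomerase. Per the labels, the control cells (NSC) were given a non-silencing control and the silenced cells had SPINK7 silenced. Both groups were seeded on permeable supports in medium with 0.09 mM calcium, received 1.8 mM calcium from day 2, lost the medium above the cells on day 7, and RNA was taken on day 14. The medium was supplemented with bovine pituitary extract (50 ug/mL) and epidermal growth factor (1 ng/mL). The other 3 libraries came from submerged, undifferentiated control cells. They entered the fit for its estimate of spread and are given as levels only. One cell line and 1 silenced population are described, so loss of SPINK7 and any other effect of the silencing treatment cannot be told apart. Whether the 3 libraries of each group stem from different cultures is not in the labels. The p-values therefore describe variation among these libraries, part or all of which may be technical.

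SPINK7 encodes a secreted inhibitor of serine proteases of the Kazal type, made by the upper layers of squamous epithelium such as that of the esophagus. Serine proteases at an epithelial surface trim adhesion proteins, activate precursors of other enzymes and cytokines and act on receptors. Serpins and Kazal inhibitors hold them in check. An air-liquid interface makes keratinocytes of the esophagus stratify and mature, so that the upper cells make secreted defence proteins, peptide and lipid transporters and enzymes that the basal cells make little of.

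The 250 bases before the annotated start are shown for SPINK7 and for 2 genes that fell with it, the protease inhibitor SERPINB12 and the peptide transporter SLC15A1, whose calls were not lost in any alternative fit. The sequences are those of RefSeq on GRCh38.p14, printed from 5′ to 3′ on the strand of the gene. They cover chr5:148312173-148312422 (plus strand), chr18:63542119-63542368 (plus strand) and chr13:98752673-98752922 (minus strand). Capitals mark matches to the motifs searched, which are the AP-1 motif TGANTCA, the grainyhead motif AACCNGTT, the C/EBP motif TTGCNNAA and the TATA motif TATAAA, on both strands.
SPINK7: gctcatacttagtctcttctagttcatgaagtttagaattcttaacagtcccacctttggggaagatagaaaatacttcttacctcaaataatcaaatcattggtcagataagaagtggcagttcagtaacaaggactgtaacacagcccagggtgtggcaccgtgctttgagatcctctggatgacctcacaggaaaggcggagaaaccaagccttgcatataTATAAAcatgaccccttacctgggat
SERPINB12: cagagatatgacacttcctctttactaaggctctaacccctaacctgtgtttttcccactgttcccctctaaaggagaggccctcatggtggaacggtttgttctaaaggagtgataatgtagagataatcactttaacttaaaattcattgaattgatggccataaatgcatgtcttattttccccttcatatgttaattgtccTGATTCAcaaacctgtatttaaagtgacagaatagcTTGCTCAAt
SLC15A1: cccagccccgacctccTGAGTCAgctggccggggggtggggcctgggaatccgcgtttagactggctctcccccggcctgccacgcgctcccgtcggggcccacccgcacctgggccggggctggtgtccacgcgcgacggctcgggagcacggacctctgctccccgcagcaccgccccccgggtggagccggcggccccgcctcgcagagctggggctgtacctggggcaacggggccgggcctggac
SPINK7 has a TATA match that begins 26 bases before the start. SERPINB12 has an AP-1 match 45 bases and a C/EBP match 9 bases before it, and SLC15A1 an AP-1 match 234 bases before it. Other genes kept their calls in every alternative fit too, and their promoters are not printed here. Those of ZNF662 and SERPINB3 held no match to these motifs, and that of CEACAM5 held a C/EBP match. PLA2G3, CPPED1, LOC645638 and DACT2 also kept every call and are not described by promoter. Of the 69 genes called outside the 3 programmes, 56 matched a RefSeq promoter, here a window of 250 bases before to 50 after the start. Among the 49 that were lower, 10.2% held the AP-1 motif, against 7.71% of all 35116 promoters. The C/EBP motif was in 12.2% and 10.5%, the grainyhead motif in 4.08% and 1.73%, and the TATA motif in 24.5% and 11.5%. These shares are of unlike sets. Each lower gene entered with a single promoter, while the comparison takes every RefSeq promoter and is not limited to the genes tested. The files hold no measurement of factor binding, and the matches are given as a description of the sequence.

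Libraries held between 7641960 and 14009746 counts. Gene levels are given as CPM, that is, counts relative to a library size corrected by TMM. The libraries numbered 2 stood apart in both ALI groups: on the first principal component of the ALI libraries (56.14% of the variance), control library 2 lay at 87.65 and silenced library 2 at 24.47, against -58.57 to -6.71 for the other 4. Of 8 proliferation markers none passed the threshold, and their summed level ran from 29.1 to 169 CPM in the controls and from 17.6 to 399 CPM in the silenced libraries, lowest in library 2 of each group. The basal squamous markers KRT5, KRT14 and TP63 were abundant in every ALI library. Of the markers of other cell types, PTPRC of leukocytes, LUM, PDGFRB and THY1 of fibroblasts and TYR and DCT of melanocytes had 0 counts in all of them. Other markers of these lists were present, COL1A1 at 11.6 to 48.3 CPM, CD68 at 51.7 to 87.0 CPM and CD14 and PMEL at up to 11.1 and 2.43 CPM. The summed level of 8 fibroblast markers was 12.2 to 49.2 CPM in the controls and 20.7 to 45.6 CPM in the silenced libraries, that of 5 leukocyte markers 52.9 to 70.5 and 67.0 to 95.4 CPM, and that of 4 melanocyte markers 1.64 to 3.28 and 0.934 to 1.99 CPM. Of these 3 lists 1, 2 and 1 members were abundant enough to be tested and none passed, and the sums overlapped between the groups. The sums of 2 lists did not overlap. The 4 endothelial markers summed to 3.03 to 9.62 CPM in the controls and 1.40 to 2.34 CPM in the silenced libraries, nearly all of it VWF (log2 fold change -1.88, edgeR adjusted p = 0.233), with PECAM1 at 0.126 CPM in 1 ALI library and at 0 in the rest. Markers of simple epithelium summed to 74.7 to 185 and 201 to 338 CPM, led by KRT8 and KRT18 (log2 fold changes 1.47 and 0.51, edgeR adjusted p = 0.122 and 0.733), with MUC5B and CDX2 at 0. The 4 stress genes found in the tables summed to 86.6 to 127 CPM in the controls and 119 to 142 CPM in the silenced libraries, and among them DDIT3 was at 72.4 and 42.1 CPM in control and silenced library 2 against 5.42 to 9.60 CPM in the other 4. The part of these differences in the results below was not tested. In whole cultures, fewer cells of a type and less RNA per cell cannot be told apart.

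Of 12806 genes tested, 119 (0.929%) passed an adjusted p of 0.05 in edgeR's quasi-likelihood test, 29 higher (0.226%) and 90 lower (0.703%) in the silenced libraries. The 3 programmes set aside held 50 of them: 22 of 70 tested envelope genes and 7 of 100 lipid genes were lower, and 21 of 145 interferon genes were higher. Outside them, 61 genes were lower and 8 higher among 12491 tested. The 5 functional classes held 33 of the lower and 4 of the higher genes, among 3288 tested (1.13% called). By class, 3.92% of 357 secreted proteins, 1.02% of 293 receptors, 0.711% of 1265 enzymes, 1.35% of 444 transporters and 0.538% of 929 transcription factors were called. Secreted proteins had the highest share, and those of the other 4 classes lay from 0.538% to 1.35%, around the 0.929% of all genes. Enzymes were below all genes here but above them with the DESeq2 Wald test (3.56% against 3.24%), on log2(RPKM + 1) (1.66% against 1.35%), with a replicate block over the 6 ALI libraries (5.91% against 3.9%) and without both ALI libraries numbered 2 (7.08% against 5.48%). Classes follow gene families by symbol. The class of secreted proteins therefore also holds intracellular serpins, such as SERPINB12 and SERPINB3, and membrane-anchored Ly6 proteins and mucins. Its calls include the targeted SPINK7, and IL36RN, which was moved into the class after its values were seen. Called genes of enzyme families that the patterns missed, such as CPPED1, AADACL2 and THEM5, are not counted among the enzymes. For comparison with counts given below by other thresholds, 4.09% of all genes were higher and 5.07% lower at an unadjusted p below 0.05 in edgeR, 1.09% and 2.15% with DESeq2, and 0.250% and 0.906% with limma-voom.

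The median log2 fold change was 0.01 over all genes, 0.01 for secreted proteins, 0.14 for receptors, 0.06 for enzymes, -0.01 for transporters and -0.02 for transcription factors. The CPM of the 2 groups did not overlap for any of the 69 genes outside the programmes, which also held for 12.1% of all genes tested. Of the 61 lower genes, 40 had a mean under 1 CPM in the monolayers. The share over all genes was not counted, and the low-count filter keeps genes present in the ALI controls alone. This count is therefore not read as a trait of the lower genes. Counts of calls moved with single libraries: 9 of the 61 and 1 of the 8 passed in each of the 9 fits that leave out 1 library, as did 25 (0.195%) of all genes tested. These are SERPINB12, SERPINB3, SPINK7, PLA2G3, SLC15A1, ZNF662, CEACAM5, CPPED1 and LOC645638, which fell, and DACT2, which rose. They also passed in all 20 alternative fits, and they are described first within their classes.

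**Figure D1:**
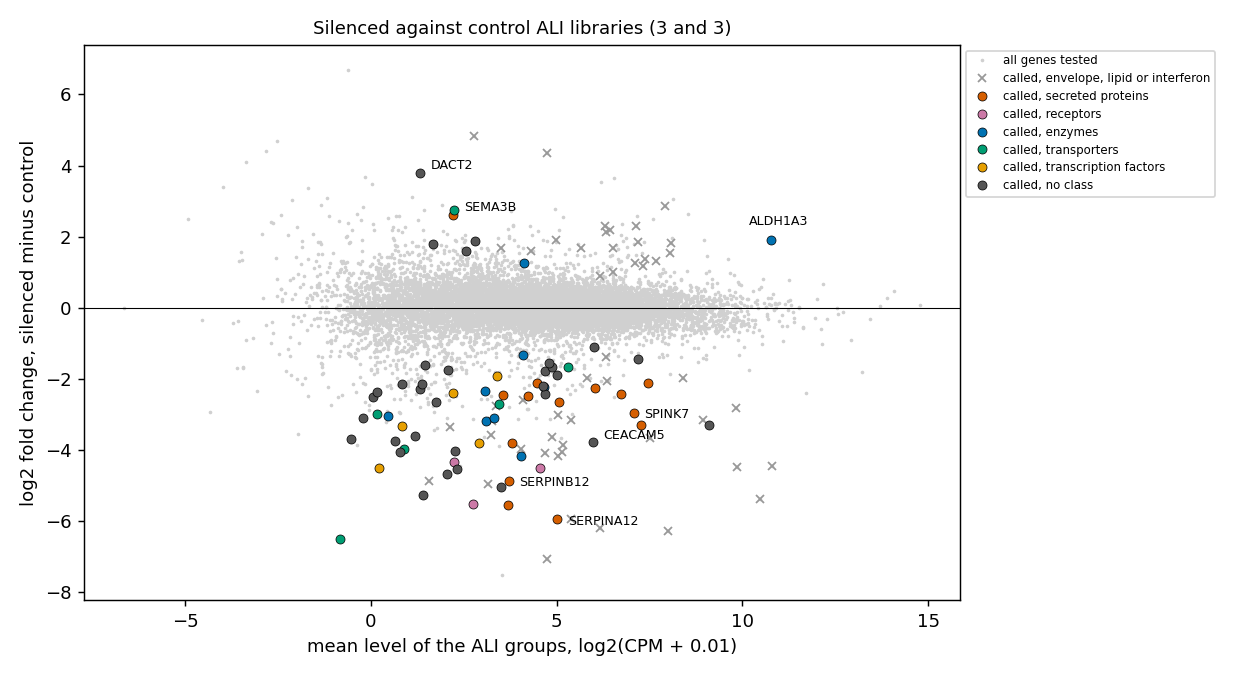
Log2 fold change (silenced minus control) against the mean level of the ALI groups (log2 of CPM + 0.01) for the 12806 genes tested; coloured circles are called genes by class and crosses are called genes of the 3 programmes set aside. Lower calls (90) outnumber higher ones (29), and DACT2, SEMA3B and ALDH1A3 are marked among the genes that rose.

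**Figure D2:**
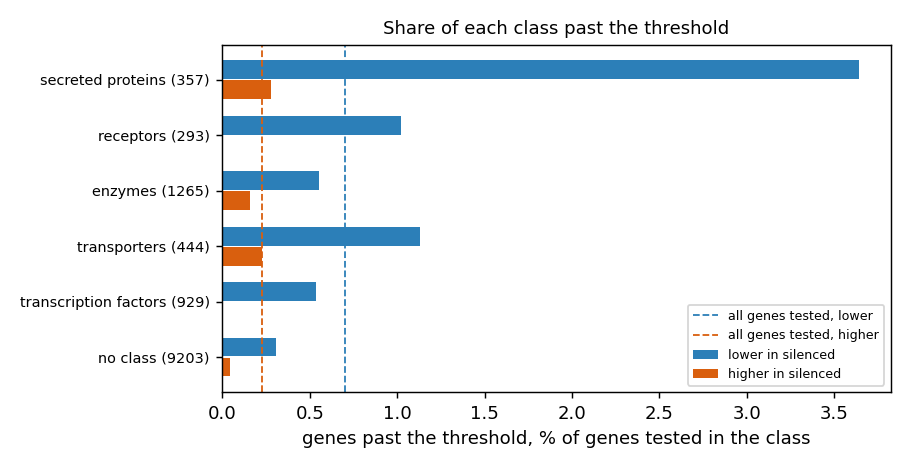
Share of tested genes past the threshold in each functional class, in percent, lower (blue) and higher (orange) in the silenced libraries, with dashed lines for all genes tested (0.703% and 0.226%) and numbers tested in parentheses. Secreted proteins stand above the other classes among lower genes.

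The class of secreted proteins gave 13 lower genes and 1 higher gene, and 5 of the 13 were protease inhibitors, of which 45 were tested (median log2 fold change -0.38). SPINK7 (chr5:147691990-147695481, plus strand, hg19 as in the deposited tables) is the targeted gene. It stood at 229, 261 and 225 CPM in control libraries 1, 2 and 3, at 20.9, 38.6 and 32.7 CPM in silenced libraries 1, 2 and 3, and at 0.212 to 0.745 CPM in the monolayers. Every silenced library was far below every control library, as the labels state. The silenced mean was 12.9% of the control mean (log2 fold change -2.95, SE 0.30, edgeR adjusted p = 0.00246). The other inhibitors that fell were 3 serpins and fetuin B.

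SERPINB12 (chr18:61223393-61234244), an intracellular serpin that blocks trypsin-like proteases, was at 24.2, 19.6 and 31.9 CPM in the controls and at 0.374, 0.756 and 1.52 CPM in the silenced libraries. The groups were well separated, with a log2 fold change of -4.87 (SE 0.50, 95% interval -6.10 to -3.64, edgeR adjusted p = 0.00248). SERPINB3 (chr18:61322431-61329197), the squamous cell carcinoma antigen that inhibits cysteine proteases, lies in the same serpin cluster. Its control libraries were at 272, 294 and 280 CPM and its silenced libraries at 24.2, 17.2 and 45 CPM. The control libraries were tight, and the silenced ones were all lower (log2 fold change -3.30, SE 0.33, adjusted p = 0.00246 in edgeR). Its reads can be shared with the near-identical SERPINB4, so the value is uncertain as to which copy it counts.

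SERPINA12 (chr14:94953620-94984181), or vaspin, an inhibitor of kallikrein 7, was at 23.4, 122 and 44.3 CPM in the controls and at 1.21, 0.550 and 1.40 CPM in the silenced libraries. Control library 2 was the highest of the controls and silenced library 2 the lowest of the silenced. The difference was -5.94 on the log2 scale (SE 0.73, edgeR adjusted p = 0.0124). FETUB (chr3:186358149-186370797), a cystatin-family inhibitor of metalloproteases of the astacin type, was at 31.5, 5.80 and 38.3 CPM in the controls and at 0.467, 0.275 and 0.937 CPM in the silenced libraries. Here control library 2 was the lowest control and still above every silenced library. Its log2 fold change was -5.55 (SE 0.81, adjusted p = 0.0235 in edgeR). SERPINA12 did not pass without silenced library 1 (adjusted p = 0.0735, edgeR) or 3 (0.0742). FETUB did not pass without control library 1 (0.0928) or 3 (0.0794) or without silenced library 1 (0.126), 2 (0.0519) or 3 (0.102), nor with limma-voom (0.0512).

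Antimicrobial, S100 and carrier proteins gave 7 lower genes of 68 tested and none higher (3 higher at an unadjusted p below 0.05, 0 with DESeq2 or limma-voom), with a median of -0.35. DEFB1, the beta-defensin made by epithelia without a stimulus, was at 16.9, 42.8 and 18.6 CPM in the controls and at 0.654, 3.02 and 1.76 CPM in the silenced libraries. Library 2 was the highest of its group in both, and the groups did not overlap. This was a log2 fold change of -3.81 (SE 0.56, edgeR adjusted p = 0.0128), and the call was lost without silenced library 3 (adjusted p = 0.0885).

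The other 6 fall outside the naming rule and were chosen after their values were seen. SLURP1, a secreted Ly6 protein that binds nicotinic acetylcholine receptors, was at 283, 161 and 421 CPM in the controls and at 56.2, 70.3 and 72.7 CPM in the silenced libraries (log2 fold change -2.12). Its relatives LY6G6C and LY6D, small proteins of the same fold, gave -2.65 and -2.45. TCN1, which carries vitamin B12, gave -2.48, C10orf99, a peptide ligand of the receptor GPR15, -2.24, and BPIFC, of the family of lipopolysaccharide-binding proteins, -2.11. Their edgeR adjusted p-values lay between 0.0126 for LY6D and 0.0354 for C10orf99.

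Each of these 6 lost its call in at least 3 single-library fits. SLURP1 did so without control library 1 (adjusted p = 0.0616, edgeR) or silenced library 1 (0.0880) or 3 (0.0885), TCN1 without the same libraries (0.0629, 0.130 and 0.131), and LY6D without control library 1 (0.0507) or 3 (0.0600) or silenced library 3 (0.0691). LY6G6C did so without control library 1 (0.0685) or 3 (0.0606) or silenced library 1 (0.0864). BPIFC did so without any 1 silenced library, or without control library 1 or 3, (0.0551 to 0.153), and C10orf99 without control or silenced library 1 or 3 or monolayer library 3 (0.0505 to 0.185). In the fit on the 6 ALI libraries SLURP1 (0.0673) and TCN1 (0.0576) did not pass, and C10orf99 did not on log2(RPKM + 0.1) (0.116).

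Of 44 cytokines and chemokines 1 fell (9 of 46, 8 of them lower, passed without both ALI libraries numbered 2), the interleukin-36 receptor antagonist IL36RN, chosen after its values were seen. It was at 192, 187 and 164 CPM in the controls and at 15.9, 58.3 and 25.9 CPM in the silenced libraries, which were all lower and spread more widely. The log2 fold change was -2.43 (SE 0.44, edgeR adjusted p = 0.0354), a call lost without control or silenced library 1 or 3 or any monolayer library (adjusted p from 0.0600 to 0.182) and in the fit on the 6 ALI libraries (0.0867). None of 80 extracellular matrix genes passed in edgeR, where the share of all genes would be less than 1 of 80 (3 higher and 4 lower at an unadjusted p below 0.05; 0 and 2 with DESeq2, none with limma-voom).

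Of 120 growth factors, their binding proteins and guidance ligands, 1 rose and none fell (8 lower at an unadjusted p below 0.05, 4 with DESeq2 and 3 with limma-voom). This was SEMA3B (chr3:50305040-50314572), a secreted semaphorin that guides and restrains migrating cells. It was at 1.61, 1.01 and 1.27 CPM in the controls, at 9.90, 8.24 and 5.62 CPM in the silenced libraries and at 3.40, 2.23 and 4.04 CPM in the monolayers. All silenced libraries were above all other libraries. The rise was 2.61 on the log2 scale (SE 0.38, edgeR adjusted p = 0.0124), and it did not pass without control library 3 (adjusted p = 0.0600) or silenced library 1 (0.0712).

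**Figure D3:**
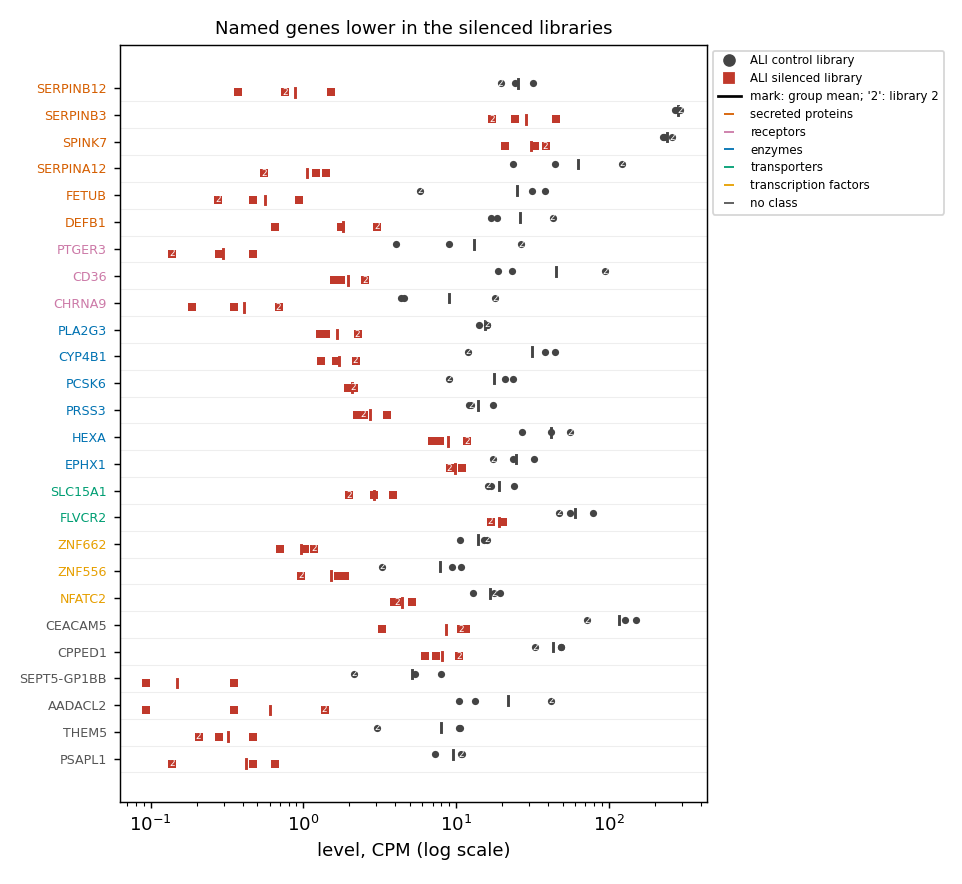
Level in CPM (log axis) of the genes named by the rule that were lower, for each ALI control library (grey circles) and ALI silenced library (red squares); vertical marks are group means, the digit 2 marks the libraries numbered 2, and gene names are coloured by class. No gene's groups overlap; silenced library 2 of SEPT5-GP1BB had 0 counts and is not drawn.

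Receptors gave 3 lower genes and none higher, shares near those of all genes (15 higher at an unadjusted p below 0.05, 3 with DESeq2, 0 with limma-voom). PTGER3 (chr1:71318036-71513491), the EP3 receptor of prostaglandin E2, was at 8.97, 26.5 and 4.02 CPM in the controls and at 0.280, 0.137 and 0.468 CPM in the silenced libraries. CD36 (chr7:80231504-80308593), a scavenger receptor that takes up fatty acids and oxidized lipoproteins, was at 23.2, 94.2 and 18.7 CPM in the controls and at 1.59, 2.54 and 1.76 CPM in the silenced libraries. CHRNA9 (chr4:40337346-40357234), the alpha 9 subunit of nicotinic acetylcholine receptors, was at 4.55, 17.9 and 4.34 CPM in the controls and at 0.187, 0.687 and 0.351 CPM in the silenced libraries. In all 3 genes control library 2 was the highest by a wide margin, and the lowest control library was still above every silenced one. The log2 fold changes were -5.51 for PTGER3 (SE 0.86, edgeR adjusted p = 0.0316), -4.50 for CD36 (SE 0.64, adjusted p = 0.0124) and -4.34 for CHRNA9 (SE 0.69, adjusted p = 0.0192). Without both ALI libraries numbered 2 all 3 genes were still lower. The log2 fold changes were -3.64 for CD36, -4.09 for PTGER3 and -4.02 for CHRNA9 (edgeR adjusted p = 4.86e-05, 0.00449 and 0.000583). That pair was left out because it stood apart in these same data, so these p-values may overstate the evidence.

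The monolayers had 0 counts of PTGER3, at most 0.106 CPM of CD36 and 1.32 to 1.70 CPM of CHRNA9. All 3 receptor calls were lost without silenced library 1 (edgeR adjusted p = 0.149 for PTGER3, 0.0779 for CD36 and 0.0998 for CHRNA9) or 3 (0.127, 0.0784 and 0.111), and that of PTGER3 also without control library 1 (0.0853) or silenced library 2 (0.0625). CHRNA9 also lost its call in the fit on the 6 ALI libraries (0.0635), and PTGER3 on log2(RPKM + 1) (0.0860). None of 68 cytokine, TNF and toll-like receptors passed in edgeR (4 higher and 7 lower at an unadjusted p below 0.05; 0 and 3 with DESeq2). The same holds for 43 receptor tyrosine kinases and phosphatases (2 and 4; 1 and 1 with DESeq2) and for 16 integrins (1 and 1; 0 with DESeq2). With limma-voom, too, none of these passed. Each family is so small that the share of all genes, 0.929%, would be less than 1 gene.

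Enzymes gave 7 lower and 2 higher genes. PLA2G3 (chr22:31530793-31536469), a secreted phospholipase A2 that releases fatty acids from phospholipids, was at 15.9, 16.0 and 14.2 CPM in the controls and at 1.40, 2.27 and 1.29 CPM in the silenced libraries. The control libraries were nearly equal, and library 2 did not stand apart. The log2 fold change was -3.19 (SE 0.33, edgeR adjusted p = 0.00583), and the monolayers had 0 counts. PLA2G3 was the only enzyme outside the 3 programmes to pass in each of the 9 single-library fits.

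CYP4B1 (chr1:47264670-47285021), a cytochrome P450 that oxidizes fatty acids and foreign compounds, was at 38.3, 12 and 44.1 CPM in the controls and at 1.31, 2.20 and 1.64 CPM in the silenced libraries (log2 fold change -4.17, SE 0.53, edgeR adjusted p = 0.0128). PCSK6 (chr15:101844133-102030187), a furin-like convertase that cuts precursors of growth factors, was at 23.6, 8.95 and 20.8 CPM in the controls and at 1.96, 2.13 and 2.11 CPM in the silenced libraries (-3.10, SE 0.46, adjusted p = 0.0128). In both genes control library 2 was the lowest control and lay above the silenced libraries.

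PRSS3 (chr9:33750464-33799229), the mesotrypsinogen that resists trypsin inhibitors, was at 12.1, 12.5 and 17.3 CPM in the controls and at 2.24, 2.47 and 3.51 CPM in the silenced libraries (log2 fold change -2.35, SE 0.32, edgeR adjusted p = 0.0176). Its reads can be shared with other trypsinogen genes. HEXA (chr15:72635778-72668520), a subunit of lysosomal hexosaminidase, was at 27.2, 55.9 and 41.6 CPM in the controls and at 6.91, 11.7 and 7.84 CPM in the silenced libraries (-2.23, SE 0.30, adjusted p = 0.0111). HEXA differs from most of the lower genes in its monolayer level, which was 37.7 ± 1.35 CPM (SD, n = 3), within the range of the ALI controls. EPHX1, the microsomal epoxide hydrolase, was at 23.4, 17.5 and 32.6 CPM in the controls and at 10.8, 9.07 and 9.60 CPM in the silenced libraries (-1.32, SE 0.26, adjusted p = 0.0463). ARSD, an arylsulfatase named with its values in view and outside the naming rule, averaged 2.44 ± 0.187 CPM in the controls against 0.270 ± 0.148 CPM after silencing (SD, n = 3 each; -3.04, adjusted p = 0.0117).

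Of the 2 enzymes that rose, ALDH1A3 (chr15:101420009-101456830) makes retinoic acid from retinaldehyde. Silenced libraries 1, 2 and 3 had 2635, 2531 and 3043 CPM, the ALI controls had 959, 552 and 676 CPM and the monolayers had 378, 809 and 796 CPM. The silenced libraries were close to each other and stood above all 6 other libraries. The silenced mean was 3.75 times the control mean (log2 fold change 1.91, SE 0.35, 95% interval 1.05 to 2.76, edgeR adjusted p = 0.0367). ST3GAL3, a sialyltransferase of glycoproteins, was at 9.24, 8.95 and 12.5 CPM in the controls and at 26.2, 30.4 and 17.7 CPM in the silenced libraries (1.27, SE 0.25, adjusted p = 0.0479). The direction of both held in all 20 alternative fits.

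The enzyme calls other than that of PLA2G3 depended on single libraries. CYP4B1, PCSK6 and PRSS3 each lost theirs without control or silenced library 1 or 3 (edgeR adjusted p from 0.0504 to 0.0994, 0.0607 to 0.0885 and 0.0641 to 0.0998), HEXA without silenced library 1 (0.0646) or 3 (0.0691), and ARSD without silenced library 1 (0.0696). ALDH1A3 lost its call without control or silenced library 1 or 3 or monolayer library 2 or 3 (0.0657 to 0.146), EPHX1 in each single-library fit except that without control library 2 (0.0757 to 0.190), and ST3GAL3 in all 9 (0.0648 to 0.186). In the fit on the 6 ALI libraries ALDH1A3 (0.0602), EPHX1 (0.16), ST3GAL3 (0.185) and ARSD (0.0523) did not pass, and on log2(RPKM + 1) EPHX1 (0.0783) and ARSD (0.148) did not. ST3GAL3 also missed the threshold with limma-voom (0.0544). With a replicate block over 9 libraries ST3GAL3 (0.0683) and EPHX1 (0.0511) did not pass in edgeR, and on log2(RPKM + 0.1) EPHX1 (0.0863) did not. Of 380 kinases and phosphatases placed by symbol, which leave out the phosphatase CPPED1 described below, none passed in edgeR, against 0.929% of all genes. At an unadjusted p below 0.05 in edgeR 13 were higher and 11 lower, with 1 and 4 by DESeq2 and 0 and 1 by limma-voom. Without both ALI libraries numbered 2, 11 of 383 were higher and 7 lower in edgeR, where 5.48% of all genes were called.

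**Figure D4:**
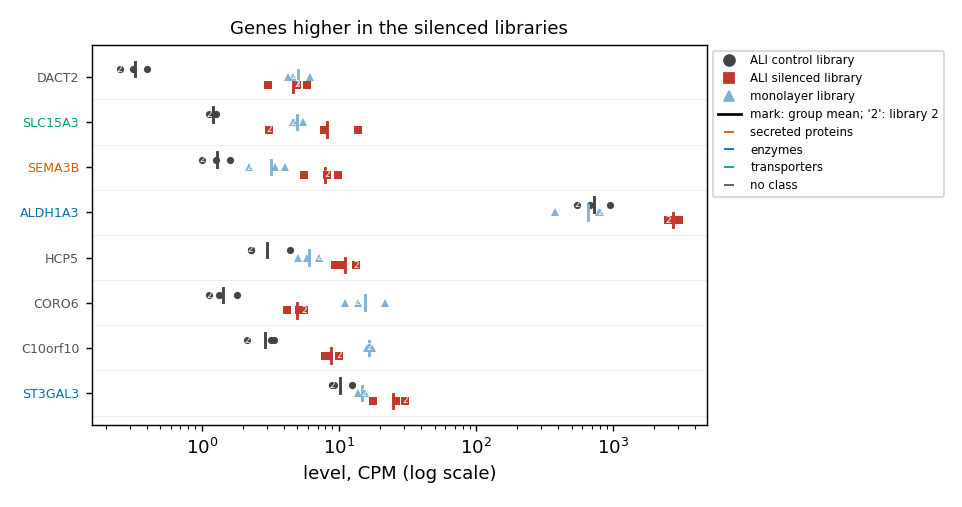
Level in CPM (log axis) of the 8 genes outside the 3 programmes that were higher, for ALI control (grey circles), ALI silenced (red squares) and monolayer libraries (blue triangles); vertical marks are group means and the digit 2 marks the libraries numbered 2. No silenced library overlaps a control library, and for ALDH1A3 and SEMA3B the silenced libraries also lie above the monolayers.

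Transporters gave 5 lower genes and 1 higher gene, and a pair of peptide transporters of the SLC15 family moved in opposite directions. SLC15A1 (chr13:99336055-99404929), or PEPT1, which takes up dipeptides and tripeptides at the cell surface with protons, was at 23.8, 16.3 and 16.8 CPM in the controls and at 2.90, 1.99 and 3.86 CPM in the silenced libraries. The groups were well apart and library 2 was not unusual in either. The log2 fold change was -2.71 (SE 0.33, 95% interval -3.52 to -1.90, edgeR adjusted p = 0.00583). SLC15A3 (chr11:60704555-60719257), which exports histidine and peptides from lysosomes, was at 1.21, 1.14 and 1.27 CPM in the controls and at 13.8, 3.09 and 7.84 CPM in the silenced libraries. Silenced library 2 was the lowest of its group but still above the controls. Its log2 fold change was 2.76 (SE 0.51, adjusted p = 0.0384 in edgeR).

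FLVCR2 (chr14:76044940-76114512), a membrane transporter of the major facilitator superfamily, ran from 47.2 to 78.4 CPM in the controls and from 16.8 to 20.3 CPM in the silenced libraries (log2 fold change -1.67, SE 0.25, edgeR adjusted p = 0.0128). The remaining 3 are outside the naming rule and were chosen after their values were seen. TRPM6, a magnesium channel, had 27 counts over the controls and 0 over the silenced libraries, at least 12.2-fold lower against a floor of 3 counts over the group. AQP9, a channel for water and glycerol, was at 3.49 ± 0.422 and 0.217 ± 0.0729 CPM (SD, n = 3 each), and SLC19A3, a thiamine transporter, at 2.00 ± 0.786 and 0.241 ± 0.197 CPM. None of 76 ABC transporters and ion pumps passed in edgeR, where the share of all genes would be less than 1 of 76. At an unadjusted p below 0.05 in edgeR 6 were higher and 9 lower, with 0 and 2 by DESeq2 and none by limma-voom.

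FLVCR2 lost its call without silenced library 1 (edgeR adjusted p = 0.0779) or 3 (0.0759), TRPM6 without control library 1 (0.0533) or silenced library 1 (0.0531), and AQP9 without control library 1 (0.0617) or silenced library 1 (0.0713) or 3 (0.0742). SLC15A3 passed in 1 single-library fit, that without silenced library 2 (0.0635 to 0.157 in the others), and SLC19A3 in none (0.0713 to 0.189). In the fit on the 6 ALI libraries FLVCR2 (0.0544), SLC15A3 (0.120) and SLC19A3 (0.122) did not pass, and on log2(RPKM + 1) TRPM6 (0.433), SLC15A3 (0.0673) and SLC19A3 (0.0581) did not. SLC15A3 also missed the threshold with limma-voom (0.16). TRPM6 missed it on log2(RPKM + 0.1) (0.0648), and SLC19A3 with a replicate block over 9 libraries (0.0534, edgeR).

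Transcription factors gave 5 lower genes and none higher (36 higher at an unadjusted p below 0.05, 4 with DESeq2 and 1 with limma-voom). ZNF662 (chr3:42947402-42960825), a zinc finger protein of the KRAB type, was at 15.3, 16.0 and 10.6 CPM in the controls and at 1.03, 1.17 and 0.702 CPM in the silenced libraries, and had 0 counts in the monolayers. Neither group had a library far from the others. The log2 fold change was -3.81 (SE 0.36, 95% interval -4.70 to -2.92, edgeR adjusted p = 0.00437). NFATC2 (chr20:50003494-50179370), a factor that enters the nucleus on calcium signals through calcineurin, was at 19.3, 17.8 and 12.9 CPM in the controls and at 3.92, 4.12 and 5.15 CPM in the silenced libraries, again with 0 counts in the monolayers. Its silenced libraries were alike and all under the lowest control (-1.92, SE 0.29, adjusted p = 0.0236 in edgeR).

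ZNF556 was at 9.38, 3.28 and 10.8 CPM in the controls and at 1.68, 0.962 and 1.87 CPM in the silenced libraries (log2 fold change -2.39, edgeR adjusted p = 0.0463). ZNF486 and ZNF630 lie outside the naming rule and were chosen after their values were seen. ZNF486 was at 3.21 ± 0.570 and 0.335 ± 0.230 CPM (SD, n = 3 each), and ZNF630 had 54 counts in the controls and 3 in the silenced libraries, a ratio of 24.5 (95% counting interval 7.94 to 122). Zinc finger genes are a large family of similar sequences, and how reads that match several of them were counted is not given in the sources used here.

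NFATC2 lost its call without control library 1 (edgeR adjusted p = 0.120) or silenced library 1 (0.130) or 3 (0.0907), and ZNF486 without control or silenced library 1 or 3 (0.0518 to 0.0742). ZNF556 passed in only 1 single-library fit, that without control library 2 (0.0757 to 0.172 in the others), and ZNF630 only in that without silenced library 2 (0.0644 to 0.172). In the fit on the 6 ALI libraries ZNF556 (0.140), ZNF486 (0.0727) and ZNF630 (0.103) did not pass. On log2(RPKM + 1) ZNF556 (0.0969) and ZNF630 (0.0723) did not. ZNF556 also missed the threshold with limma-voom (0.0809) and on log2(RPKM + 0.1) (0.0809). None of 70 homeobox factors (9 higher and 4 lower at an unadjusted p below 0.05; 1 and 2 with DESeq2), 49 forkhead, SOX, TCF/LEF and T-box factors (1 and 2; 0 with DESeq2), 47 bZIP factors (4 and 2; 1 and 0 with DESeq2) and 23 nuclear receptors (0 and 1; 0 with DESeq2) passed in edgeR. With limma-voom 1 bZIP factor was higher and none of the other 3 families had a call. In edgeR the share of all genes, 0.929%, would be less than 1 gene in each of these families.

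Genes whose symbol put them in no class gave 28 lower and 4 higher genes of 9203 tested (0.348%). CEACAM5 (chr19:42212530-42234437), the carcinoembryonic antigen, an adhesion protein of the upper cells of mucosal epithelium, was at 127, 72.3 and 152 CPM in the controls and at 3.27, 10.7 and 11.6 CPM in the silenced libraries. All silenced libraries were below the lowest control by a wide margin (log2 fold change -3.78, SE 0.49, edgeR adjusted p = 0.00787). Its reads can be shared with other CEACAM genes. CPPED1 (chr16:12753656-12897744), a protein phosphatase that the symbol patterns left in no class, was at 48.4, 33.0 and 48.7 CPM in the controls, at 7.38, 10.5 and 6.20 CPM in the silenced libraries and at 27.1, 33.5 and 28.4 CPM in the monolayers. The silenced libraries were below both other groups. Its log2 fold change was -2.42 (SE 0.27, adjusted p = 0.00388 in edgeR).

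AADACL2 and THEM5 belong to enzyme families that the symbol patterns did not place among the enzymes. AADACL2, of the arylacetamide deacetylase family, was at 13.3, 41.9 and 10.5 CPM in the controls and at 0.0934, 1.37 and 0.351 CPM in the silenced libraries (log2 fold change -5.03, edgeR adjusted p = 0.0435). THEM5, an acyl-CoA thioesterase, was at 10.4, 3.03 and 10.6 CPM in the controls and at 0.280, 0.206 and 0.468 CPM in the silenced libraries (-4.67, adjusted p = 0.0128). PSAPL1, a relative of the precursor of the saposins, which activate lysosomal lipid hydrolases, was at 7.23, 10.8 and 10.7 CPM in the controls and at 0.654, 0.137 and 0.468 CPM in the silenced libraries (-4.54, adjusted p = 0.0119). In each of the 3 every silenced library was below every control library. SEPT5-GP1BB, a readthrough transcript whose reads cannot be told apart from those of the overlapping SEPT5 and GP1BB, was at 5.14 ± 2.90 and 0.148 ± 0.182 CPM (SD, n = 3 each; -5.25, adjusted p = 0.0235).

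PSAPL1 lost its call without silenced library 3 (edgeR adjusted p = 0.0728). THEM5 and SEPT5-GP1BB lost theirs without control or silenced library 1 or 3 (0.0563 to 0.0810 and 0.0665 to 0.130). AADACL2 lost its call without the same libraries and also without monolayer library 1 or 3 (0.0505 to 0.192). In the fit on the 6 ALI libraries AADACL2 (0.0602) and SEPT5-GP1BB (0.0602) did not pass, and on log2(RPKM + 1) SEPT5-GP1BB (0.0741) did not.

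Among the 4 higher genes of no class, DACT2 (chr6:168707584-168720402), which binds Dishevelled and modulates WNT and TGF-beta signalling, passed in every fit. It was at 0.402, 0.252 and 0.317 CPM in the controls, where it had 8 counts in all, at 5.89, 4.95 and 3.04 CPM in the silenced libraries and at 4.25, 4.65 and 6.17 CPM in the monolayers. The ranges of the silenced and monolayer libraries overlapped, and the controls were far below both. The log2 fold change was 3.80 (SE 0.43, 95% interval 2.73 to 4.86, edgeR adjusted p = 0.00437). HCP5 (chr6:31430957-31433586), a non-coding transcript of the major histocompatibility region, was at 2.28, 2.27 and 4.44 CPM in the controls and at 10.5, 13.3 and 9.37 CPM in the silenced libraries (1.87, SE 0.33, adjusted p = 0.0323). HCP5 passed only without control library 2 or 3 (adjusted p from 0.0542 to 0.141 in the other 7 single-library fits, edgeR), and not in the fit on the 6 ALI libraries (0.12).

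Control library 2 was over 2-fold above the mean of control libraries 1 and 3 in 9 of the 61 lower genes and over 2-fold below it in 10, with ratios from 0.166 for FETUB to 4.50 for CD36. The share over all genes was not counted, so these counts are not read as a trait of the lower genes. Each count of calls was also taken without the pair of ALI libraries numbered 2, a fit with 2 libraries per ALI group and 4 residual degrees of freedom. The pair was chosen from these same data, so the p-values and counts of that fit may overstate the evidence. That fit called 708 of 12931 genes (5.48%), 280 higher (2.17%) and 428 lower (3.31%). It held 117 of the 119 genes called with all libraries (98.3%), which were 16.5% of its own calls. The 2 not held were the thiamine transporter SLC19A3 (edgeR adjusted p = 0.0794) and the coronin CORO6 (0.0506), both outside the naming rule and chosen after their values were seen. By class, 45 secreted proteins were lower and 4 higher, 9 receptors lower and 5 higher, 65 enzymes lower and 25 higher, 29 transporters lower and 1 higher, and 21 transcription factors lower and 11 higher. The shares called were 13.4% of 365 secreted proteins, 4.71% of 297 receptors, 7.08% of 1272 enzymes, 6.67% of 450 transporters and 3.4% of 940 transcription factors. Over all genes the share was 5.48%, above that of receptors and of transcription factors.

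The genes named next passed without this pair but not with all libraries. They are a selection chosen after their values were seen, and they leave out larger changes. Among enzymes, ARG1 was at 6.16, 57.5 and 5.71 CPM in the controls and at 0, 0.275 and 0 CPM in the silenced libraries. It gave -8.89 without the pair (edgeR adjusted p = 0.000729) and -7.51 with all libraries (0.0559). The transcription factor ZBTB7C gave -3.59 and -3.38 (0.00655 and 0.0652), and the enzyme KLK5, which was higher, 1.48 and 1.45 (0.0238 and 0.0658). MUC21, a membrane mucin of the esophagus, was at 44.9, 13.1 and 41.0 CPM in the controls and at 1.40, 22.1 and 3.51 CPM in the silenced libraries. Its log2 fold change was -4.16 without the pair (edgeR adjusted p = 4.7e-05) and -1.84 with all libraries (adjusted p = 0.536). CLCA4, a protease-like regulator of chloride channels, was at 67.4, 36.7 and 45.5 CPM in the controls and at 1.59, 26.1 and 5.15 CPM in the silenced libraries. It gave -4.10 without the pair (adjusted p = 0.000152, edgeR) and -2.16 with it (0.306). FAM3D, a secreted cytokine-like protein, and LYPD2, of the Ly6 family, gave -3.98 and -3.43 without the pair and -2.80 and -2.19 with it.

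The membrane serine proteases TMPRSS11D and TMPRSS11B gave log2 fold changes of -2.76 and -2.52 without the pair (edgeR adjusted p = 0.00536 and 0.00656), against -1.98 and -1.63 with it (0.149 and 0.243). The zinc importer SLC39A2 and the sodium channel subunit SCNN1B gave -2.37 and -2.09, against -1.93 and -1.15. The receptor subunit CSF2RB, shared by IL-3, IL-5 and GM-CSF, gave -2.51 without the pair (adjusted p = 0.00402) and -1.59 with it (0.287). In the other direction, the stem cell factor gene KITLG was at 15.0, 65.8 and 11.8 CPM in the controls and at 31.0, 34.2 and 36.2 CPM in the silenced libraries, so that control library 2 was above all silenced libraries. It gave 1.33 without the pair (adjusted p = 0.00542, edgeR) and 0.13 with it (0.953).

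The higher enzymes and transcription factors of that fit included genes of DNA synthesis and mitosis. RRM2, the regulated subunit of ribonucleotide reductase, was at 18.4, 0 and 17.7 CPM in the controls and at 71.1, 0.962 and 91.9 CPM in the silenced libraries, a log2 fold change of 2.18 without the pair (edgeR adjusted p = 0.000981). FOXM1, a factor of mitotic genes, was at 5.22, 0.757 and 6.34 CPM in the controls and at 22.4, 0.618 and 16.9 CPM in the silenced libraries (1.76, adjusted p = 0.00976). Both genes were low in library 2 of each group, as were the 8 proliferation markers. The part of proliferation in these results was not tested.

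**Figure D5:**
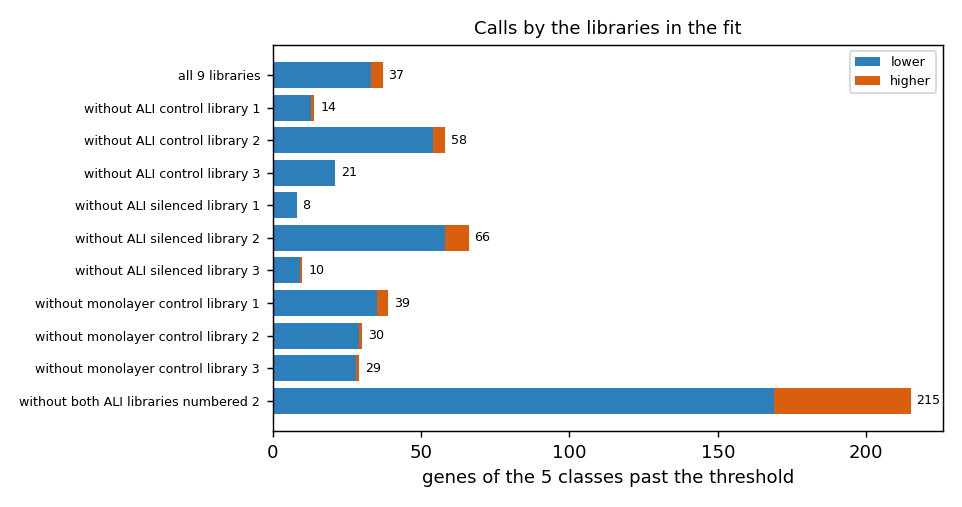
Number of genes of the 5 functional classes past the threshold, lower (blue) and higher (orange) in the silenced libraries, in the fit of all 9 libraries, in the 9 fits without 1 library and in the fit without both ALI libraries numbered 2. The count was 37 with all libraries (1.13%, against 0.929% of all genes) and 215 without that pair (6.47%, against 5.48%).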

How the data were processed

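Each deposited table held 29800 transcript rows with hg19 coordinates, whole-number read counts and RPKM values made by the authors. The submitters' processing notes name STAR 2.4.2a, Bowtie, MACS2 and hg19 without their roles, and per the labels' protocols RNA was selected for polyA and libraries kept strand. How reads were counted (tool, annotation, strand, multi-mapping reads) is not given in the sources used here. Antisense and overlapping genes may not be separated. Names of the ALI tables speak of day 7, and some give another library number than the labels do. The labels were used for days, groups and numbers.

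Counts were summed over rows of 1 gene symbol and chromosome (24672 genes) and tested with edgeR 4.0.16 (R 4.3.3) after filterByExpr over 3 groups and TMM scaling, by a robust quasi-likelihood fit over 9 libraries (6 residual degrees of freedom) and Benjamini-Hochberg adjustment over all 12806 genes. SEs come from the F statistic, and 95% intervals use the residual degrees of freedom. Alternatives used DESeq2 1.42.0, limma 3.58.1 (limma-voom, and log2(RPKM + 1) and log2(RPKM + 0.1) of the deposited RPKM), other filters and scaling, a replicate block and fewer libraries. The counting floor of 3 counts over a group and the interval of a count ratio cover counting error only.

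Classes were assigned by gene symbol, in a fixed order, with the 3 programmes set aside first. The low-count filter kept 357 of 1189 secreted proteins, 293 of 1327 receptors, 1265 of 2003 enzymes, 444 of 915 transporters and 929 of 1430 transcription factors. The members, lists and classes were chosen with earlier results of these data known, and IL36RN was moved from receptors to secreted proteins after its values were seen. The naming rule takes, per class and direction, up to 6 genes past the threshold whose higher group averages 5 CPM or more, those that passed in every fit without 1 library first, then by absolute log2 fold change. Among genes of no class it leaves out LOC, LINC, FAM, open-reading-frame and comma-joined symbols (a hyphenated readthrough symbol passes), and SPINK7 is named in any case.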

Additional observations from a re-analysis of the deposited data

How the results depend on the processing

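Over the 20 alternatives, none of the 30 genes named by the rule besides SPINK7 changed direction. Of their values under the alternatives 479 stayed past the threshold and 121 did not, and SPINK7 passed in every alternative. Counts of calls were less stable. In fits without 1 library, between 3 and 92 genes were higher and between 25 and 147 lower, with 5 to 22 secreted proteins, 0 to 5 receptors, 1 to 22 enzymes, 1 to 11 transporters and 1 to 7 transcription factors called. The lowest of these counts came without silenced library 1 or 3 (for transcription factors also without control library 1), and the highest without control or silenced library 2 (for receptors also without monolayer library 1). Without both ALI libraries numbered 2, 280 genes were higher and 428 lower, with 49 secreted proteins, 14 receptors, 90 enzymes, 30 transporters and 32 transcription factors called. That fit called 5.48% of all genes, and its class shares are given above. With the DESeq2 Wald test 140 genes were higher and 275 lower, with 36 secreted proteins, 12 receptors, 45 enzymes, 19 transporters and 18 transcription factors. It called 3.24% of all genes, and 10.1%, 4.1%, 3.56%, 4.28% and 1.94% of these classes in that order. The fit on the 6 ALI libraries alone gave 5 higher and 54 lower genes, 5 enzymes, 2 transporters and 3 transcription factors. It called 0.48% of all genes, 0.41% of enzymes, 0.48% of transporters and 0.341% of transcription factors. Without a low-count filter 45 genes were higher, and 15 enzymes, 5 receptors and 11 transporters were called. The shares were 0.911% of all genes, 0.899% of enzymes, 0.792% of receptors and 1.52% of transporters. On log2(RPKM + 1) 52 genes were higher and 21 enzymes and 22 secreted proteins were called, and on log2(RPKM + 0.1) 46 genes were higher. Shares on log2(RPKM + 1) were 1.35% of all genes, 1.66% of enzymes and 6.16% of secreted proteins. DESeq2 size factors, the filter at 1 CPM in 3 libraries and limma-voom kept each count within 1.5 times. The cause of these differences was not tested.

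Same-numbered control and silenced libraries deviated from their group means with correlations of 0.495, 0.577 and -0.006. Those of unlike number ran from -0.691 (control library 2, silenced library 1) to 0.637 (control library 3, silenced library 1). The highest value was that of an unlike pair, and the numbers were not taken to pair the libraries. With the number as a replicate block over 9 libraries, 51 genes were higher, and 5 receptors and 9 transcription factors were called. These were 1.71% of receptors and 0.969% of transcription factors, against 1.37% of all genes called. With the block over the 6 ALI libraries, 172 genes were higher and 307 lower, and 44 secreted proteins, 16 receptors, 72 enzymes, 19 transporters and 20 transcription factors were called. That fit called 3.9% of all genes, and 13.5%, 5.93%, 5.91%, 4.56% and 2.28% of these classes in that order. Genes of few counts, such as TRPM6, ZNF630 and DACT2, are limited by depth.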

Other observations

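Among the called genes of no class that the naming rule does not take, all chosen after their values were seen, TMEM45A, a membrane protein of maturing keratinocytes, had 630, 1714 and 630 CPM in the control libraries and 80.7, 85.0 and 139 CPM after silencing (log2 fold change -3.29, SE 0.43, edgeR adjusted p = 0.00806), a call lost only without silenced library 1 (0.0601) among single-library fits. LOC645638, an unnamed locus on chromosome 17, was at 58.5, 38.6 and 54.6 CPM in the controls and at 14.1, 11.7 and 14.9 CPM in the silenced libraries and passed in every fit (-1.90, SE 0.22, adjusted p = 0.00456). MT1X, a metallothionein that binds zinc and copper, was at 172, 280 and 188 CPM in the controls and at 56.6, 84.1 and 96.5 CPM in the silenced libraries (-1.43, adjusted p = 0.0455), but passed only without control library 2 (0.0593 to 0.179 in the other single-library fits). MT1X also did not pass in the fit on the 6 ALI libraries (0.122, edgeR) or on log2(RPKM + 0.1) (0.0542, limma). Its reads can be shared with other metallothionein genes.

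Some lower genes had their highest level in the monolayers. The heparan sulfate proteoglycan GPC4 was at 21.2 ± 3.09 CPM in the monolayers, 1.55 ± 0.367 CPM in the ALI controls and 0.146 ± 0.178 CPM in the silenced libraries (SD, n = 3 each), and passed in 1 single-library fit, that without silenced library 2 (edgeR adjusted p from 0.0544 to 0.172 in the others). MAMDC2 was at 30.2 ± 2.84, 2.92 ± 0.799 and 0.659 ± 0.159 CPM in the same order, and did not pass without silenced library 1 (0.0554) or 3 (0.0742) or control library 1 (0.0629). FAM171A1 was at 18.2 ± 2.30, 4.25 ± 0.322 and 0.926 ± 0.339 CPM, with its call lost without silenced library 1 (0.0695) or 3 (0.0691). In these 3 genes the silenced libraries were the lowest of the 9. C10orf10 and CORO6 rose from 2.91 ± 0.672 to 8.84 ± 1.07 CPM and from 1.42 ± 0.339 to 4.97 ± 0.690 CPM, and stood at 16.7 ± 0.635 and 15.6 ± 5.55 CPM in the monolayers. C10orf10 did not pass without monolayer library 2 or 3, silenced library 1 or 3, or control library 1 (0.0505 to 0.0742). Among single-library fits CORO6 passed only without monolayer library 1 (0.0676 to 0.165 in the others). None of the genes of this paragraph passed in the fit on the 6 ALI libraries (edgeR adjusted p from 0.0813 for FAM171A1 to 0.175 for GPC4).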
